A study of Homo sapiens with 4 samples.

Results

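The liver-enriched transcription factors described here were HNF4A, HNF4G, FOXA1, FOXA2, FOXA3, CEBPA, ONECUT1 and NR5A2. They are DNA-binding proteins of 4 kinds that together set the hepatocyte expression programme. Members were taken by name, as the 8 rows whose identifier equals one of these symbols among the 44591 genes of each table. The rule itself uses no measured value. Their mRNA was measured by poly(A) RNA-seq in 4 libraries of cells labelled HepG2, a human liver tumour line kept as hepatocyte-like cells in many laboratories. There were 2 groups of 2 libraries, 1 transfected with siNC, the control siRNA, and 1 with siLINC01186, which is directed against the long noncoding RNA LINC01186 that the study calls SALIS. All 4 cultures were transfected at about 70% confluency, held for 6 h in serum-free medium and then grown for 24 h with 10% serum. The study describes the repeats of each group as biological repeats that received the same siNC but different oligonucleotides against SALIS, and the labels do not say which oligonucleotide a library received or what the replicate numbers 1 and 2 share, so p-values measure only the spread between these libraries.

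In hepatocytes, FOXA proteins are forkhead factors that can bind their sites in closed chromatin, and HNF4A, a nuclear receptor, then occupies enhancers of apolipoprotein, clotting factor and metabolic genes together with C/EBP proteins. CEBPA is the basic leucine zipper factor that drives metabolic genes and restrains proliferation, ONECUT1, also called HNF6, combines a cut domain with a homeodomain and acts in liver and bile duct development, and NR5A2, also called LRH-1, is a nuclear receptor that acts on bile acid and cholesterol genes. These factors bind one another's promoters and enhancers, and a liver line is commonly recognized by their joint presence and by secreted proteins such as albumin.

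The libraries held 14968958 to 17297245 counts, so that 3 counts, the limit that a count of 0 allows, stood for 0.169 to 0.210 counts per 1000000 (CPM, on TMM-scaled library sizes), and such limits cover counting error only. LINC01186, the transcript aimed at, was covered by 15 and 14 counts with siNC and by 12 and 14 with siLINC01186, a log2 fold change of -0.12 (SE 0.53, edgeR quasi-likelihood test, adjusted p = 1.00), so a knockdown was not detectable at this depth and the label was not checked by its target. The study reports by qPCR that its siRNAs lowered SALIS in HepG2 cells, without saying whether the sequenced cultures were measured. Of the 8 hepatocyte markers ALB, APOA1, APOB, TTR, SERPINA1, AFP, TF and FGB, 6 were at 0 counts in the siNC library of replicate 1 and 4 in the siLINC01186 library of replicate 1. Summed over these 8 genes, the level was 0.136 and 0.365 TPM (transcript abundance, counts divided by gene length and scaled to the same total in each library) in the replicate 1 libraries and 5.73 and 4.70 TPM in the replicate 2 libraries. ALB, which encodes serum albumin, had 0 counts in both replicate 1 libraries and 15 and 14 in the replicate 2 libraries, and TTR, transthyretin, had 0, 0, 0 and 3. The defining hepatocyte markers were thus at or near 0 in libraries labelled HepG2, which goes against the label, and the cells are called here by their label only. The study's supplement reports a short tandem repeat profile of its HepG2 cells that fully matched a HepG2 entry. It does not say whether the sequenced cultures were profiled. Markers of other cells were uneven. Of the 4 bile duct markers, KRT7, a keratin also of other epithelia, was at 283 to 465 TPM, while SOX9 was at 8.19 to 10.9 TPM, KRT19 at 2.55 to 3.48 TPM and CFTR at 0.0623 to 0.342 TPM. The summed fibroblast and stellate list of 5 genes was at 14.9 to 32.2 TPM, the summed endothelial list of 3 genes at 0.707 to 1.28 TPM, and of the 4 immune markers only CD68 exceeded 2 TPM.

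**Figure D1:**
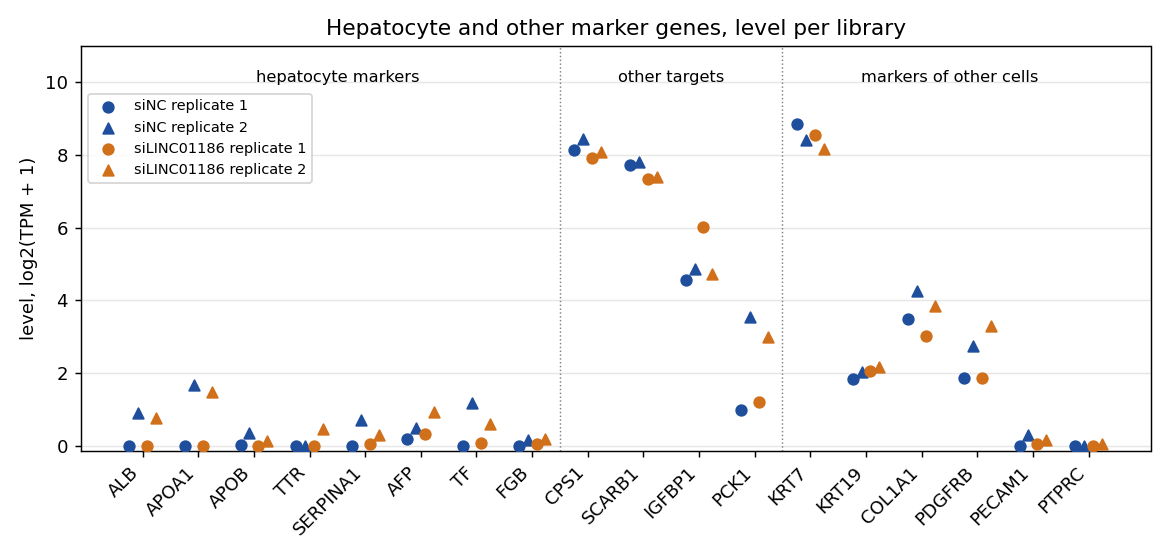
Level, as log2(TPM + 1) on the y axis, of the 8 hepatocyte markers, 4 other targets of the liver factors and 6 markers of other cells on the x axis, with 1 point per library (blue siNC, orange siLINC01186, circles replicate 1, triangles replicate 2). The hepatocyte markers sit at or near 0 TPM in the replicate 1 libraries and reach at most 2.19 TPM (APOA1) in the replicate 2 libraries, while CPS1, SCARB1 and KRT7 are high in every library, SCARB1 being the lowest of the 3 at 160 TPM.

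The promoters of the members help to place what a gene-level count can show, because HNF4A and NR5A2 each start transcription at more than one site while the deposited tables hold 1 count per gene. RefSeq (GRCh38.p14) gave the 8 start sites used here, which belong to 6 members. No window of FOXA2 or HNF4G was examined. The HNF4A starts lie 45540 bases apart on chromosome 20, and the downstream one, known as P1, is the promoter used in adult liver, whereas the upstream one, P2, is the one known from pancreas and fetal tissue. Shown are the 250 bases before 4 starts, 5′ to 3′ on the strand of the gene, chosen as both HNF4A starts, CEBPA as the member with the highest level and ONECUT1 as the member at 0. Capitals mark matches to a liver factor motif.
HNF4A upstream start, chr20:44355449-44355698, plus strand: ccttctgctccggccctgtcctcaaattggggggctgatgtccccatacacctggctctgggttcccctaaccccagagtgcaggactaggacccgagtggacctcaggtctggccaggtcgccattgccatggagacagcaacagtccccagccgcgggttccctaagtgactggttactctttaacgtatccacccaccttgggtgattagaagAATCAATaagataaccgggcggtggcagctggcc
HNF4A downstream start, chr20:44400989-44401238, plus strand: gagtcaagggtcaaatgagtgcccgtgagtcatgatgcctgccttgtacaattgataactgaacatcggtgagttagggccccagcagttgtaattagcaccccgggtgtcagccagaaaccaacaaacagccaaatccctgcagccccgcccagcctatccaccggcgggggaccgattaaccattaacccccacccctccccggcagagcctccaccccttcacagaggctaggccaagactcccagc
CEBPA, chr19:33302535-33302784, minus strand: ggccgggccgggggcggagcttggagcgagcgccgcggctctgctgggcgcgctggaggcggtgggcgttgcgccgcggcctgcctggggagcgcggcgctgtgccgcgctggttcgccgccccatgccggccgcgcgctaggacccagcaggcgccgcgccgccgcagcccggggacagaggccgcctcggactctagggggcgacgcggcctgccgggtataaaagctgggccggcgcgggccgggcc
ONECUT1, chr15:52790337-52790586, minus strand: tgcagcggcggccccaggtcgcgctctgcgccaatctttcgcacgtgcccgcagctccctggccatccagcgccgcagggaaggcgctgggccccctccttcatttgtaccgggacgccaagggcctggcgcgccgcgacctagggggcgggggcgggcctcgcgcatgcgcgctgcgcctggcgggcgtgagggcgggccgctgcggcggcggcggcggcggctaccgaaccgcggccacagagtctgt

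On both strands of windows of 300 bases, 250 before and 50 after the start, the letters CAAAGTCCA (HNF4), TGTTTAC (FOXA), TTGCNNAA (C/EBP), ATTGATT (ONECUT) and CAAGGTCA (NR5A2) were searched. The upstream HNF4A window held 1 match, the ONECUT letters on the minus strand 34 bases before the start, and 2.18% of all 35114 windows hold them. The downstream HNF4A window held none of these letters. One of the NR5A2 windows, with its start at position 200042591 of chromosome 1, held the FOXA letters on the minus strand 105 bases before the start, against 3.42% of windows. No other match to the 5 motifs was found in the windows of the 6 members. The HNF4 letters occur in 0.384% of windows, the C/EBP letters in 10.5% and the NR5A2 letters in 1.28%. The CEBPA window is rich in CpG, at an observed over expected ratio of 1.05 and 80.7% GC, and carries the TATA letters TATAAA 30 bases before the start, which 11.5% of windows hold. The ONECUT1 window has a CpG ratio of 0.927 and FOXA1 one of 0.966, against a median of 0.579 over all windows, while the HNF4A windows lie at 0.409 and 0.364. The CpG-rich windows therefore include both the member with the highest level and the one without a count.

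CEBPA had the highest level of the 8 members. The gene, identifier 1050, covers chr19:33790840-33793470 on the minus strand in the hg19 positions of the tables, and it had 243 and 303 counts with siNC and 148 and 313 with siLINC01186. Its level was 11.96 and 15.7 TPM with siNC, a mean of 13.8 ± 2.62 TPM (SD, n = 2), and 7.16 and 13.8 TPM with siLINC01186, where the replicate 1 library stood lowest of the 4. In siNC this mean exceeded that of 60.7% of the protein-coding rows. Reads over CEBPA can also belong to its antisense neighbours, because the kit named by the study does not mark strand: ENSG00000267580.1, which overlaps it on the plus strand, had 35, 54, 20 and 61 counts in the order siNC replicate 1, siNC replicate 2, siLINC01186 replicate 1, siLINC01186 replicate 2, and ENSG00000267727.1 had 20, 31, 9 and 32. Both were lowest in the library where CEBPA was lowest, and reads of the 3 genes cannot be told apart.

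HNF4A (identifier 3172, chr20:42984441-43061485 in hg19, plus strand) had 79 and 161 counts with siNC and 83 and 188 with siLINC01186. Its level was 1.87 and 4.005 TPM in the siNC libraries (mean 2.94 ± 1.51, SD, n = 2) and 1.93 and 4.001 TPM in the siLINC01186 libraries. Both replicate 2 libraries lay about alike and above both replicate 1 libraries, whatever the siRNA. HNF4G, the paralogue best known from gut and pancreas (identifier 3174, chr8:76319905-76479078 in hg19, plus strand), had 51 and 55 counts with siNC and 46 and 57 with siLINC01186. Its level was the steadiest among the tested members, at 1.45 and 1.64 TPM with siNC and 1.29 and 1.46 TPM with siLINC01186. The ratio of HNF4A to HNF4G in TPM ranged from 1.29 to 2.75 over the libraries and was 1.29 and 1.503 in the replicate 1 libraries and 2.44 and 2.75 in the replicate 2 libraries.

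Of the forkhead genes, FOXA1 was the one clearly detected. FOXA1 (identifier 3169, chr14:38058757-38064325 in hg19, minus strand) had 95 and 43 counts with siNC and 65 and 64 with siLINC01186. This corresponded to 3.64 and 1.73 TPM with siNC (mean 2.69 ± 1.35, SD, n = 2) and 2.45 and 2.20 TPM with siLINC01186, the siNC libraries thus lying on either side of the siLINC01186 ones. FOXA2 (identifier 3170, chr20:22561642-22566101, minus strand) had 0 counts in 3 libraries and 1 count in the siLINC01186 library of replicate 2. For FOXA2, 3 counts would have stood for 0.134 to 0.156 TPM, and FOXA1 exceeded that limit 11.1 to 24.5 times. FOXA3 (identifier 3171, chr19:46367518-46377055, plus strand), the family member most tied to the adult hepatocyte, had 1 and 5 counts with siNC and 1 and 4 with siLINC01186, or 0.0651, 0.342, 0.0640 and 0.234 TPM. LINC00261, the noncoding neighbour of FOXA2, had 2 and 1 counts with siNC and 0 and 0 with siLINC01186.

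ONECUT1 (identifier 3175, chr15:53049160-53082209, minus strand) had 0 counts in all 4 libraries, which allows a level of up to 0.145 to 0.170 TPM. NR5A2 (identifier 2494, chr1:199996730-200146552, plus strand) had 45 and 60 counts with siNC and 34 and 106 with siLINC01186, or 1.12 and 1.56 TPM with siNC (mean 1.34 ± 0.316, SD, n = 2) and 0.828 and 2.36 TPM with siLINC01186. Its siLINC01186 libraries stood as the lowest and the highest of the 4. In the siNC libraries the order of levels in TPM was CEBPA, HNF4A, FOXA1, HNF4G, NR5A2, FOXA3 and then FOXA2 and ONECUT1 at 0. HNF4A and FOXA1 did not differ beyond their spread, since their libraries overlapped, and neither did HNF4G and NR5A2. FOXA3 and FOXA2 could not be separated at this depth either, since FOXA3 in the replicate 1 libraries lay under the level of 3 counts of FOXA2. The steps from CEBPA to HNF4A, from FOXA1 to HNF4G and from NR5A2 to FOXA3 separated the libraries, both in siNC and over all 4. The step from FOXA1 to HNF4G was narrow, at 1.73 against 1.64 TPM in siNC replicate 2, on 43 and 55 counts. Counting error was not set against that gap. HNF4A exceeded 42.6% of the protein-coding rows in siNC, FOXA1 42.0%, HNF4G 38.1%, NR5A2 37.4% and FOXA3 27.8%.

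**Figure D2:**
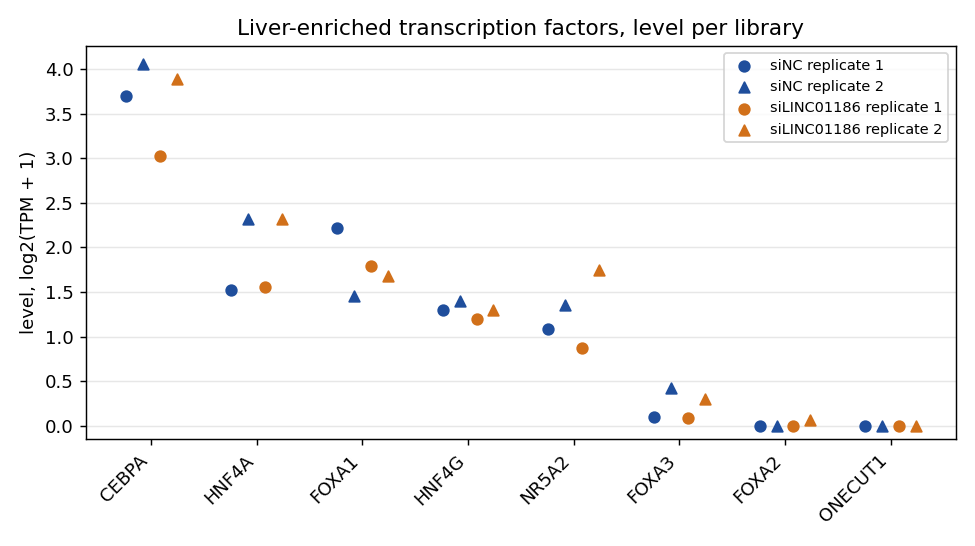
Level of the 8 liver-enriched factors, as log2(TPM + 1) on the y axis, ordered by mean siNC level on the x axis, with 1 point per library (blue siNC, orange siLINC01186, circles replicate 1, triangles replicate 2). CEBPA lies at 7.16 to 15.7 TPM, 4 members lie between 0.828 and 4.005 TPM, and FOXA3, FOXA2 and ONECUT1 lie at or near 0.

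For several members a relative in the same family was far higher. CEBPB, the C/EBP form linked to acute-phase and stress responses, was at 273 and 318 TPM with siNC and 249 and 236 TPM with siLINC01186, 17.1 to 34.7 times the CEBPA level in the same library. CEBPD exceeded CEBPA 6.17 to 14.5 times and CEBPG 1.24 to 2.51 times. ONECUT2 was at 9.88 to 14.5 TPM, 62.3 to 85.2 times the level that 3 counts of ONECUT1 would have stood for, and ONECUT3 was at 1.41 to 5.58 TPM. GATA6 was at 6.97 to 9.69 TPM while GATA4 had 2, 0, 0 and 0 counts. Of the factors that work beside the members, HHEX was at 21.7 to 26.8 TPM, RXRA at 61.1 to 76.3 and NR2F1 at a siNC mean of 48.2, whereas PROX1 and NR0B2, both known from hepatocytes, had at most 3 counts in any library. The levels of these relatives are descriptions, with no test between genes.

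**Figure D3:**
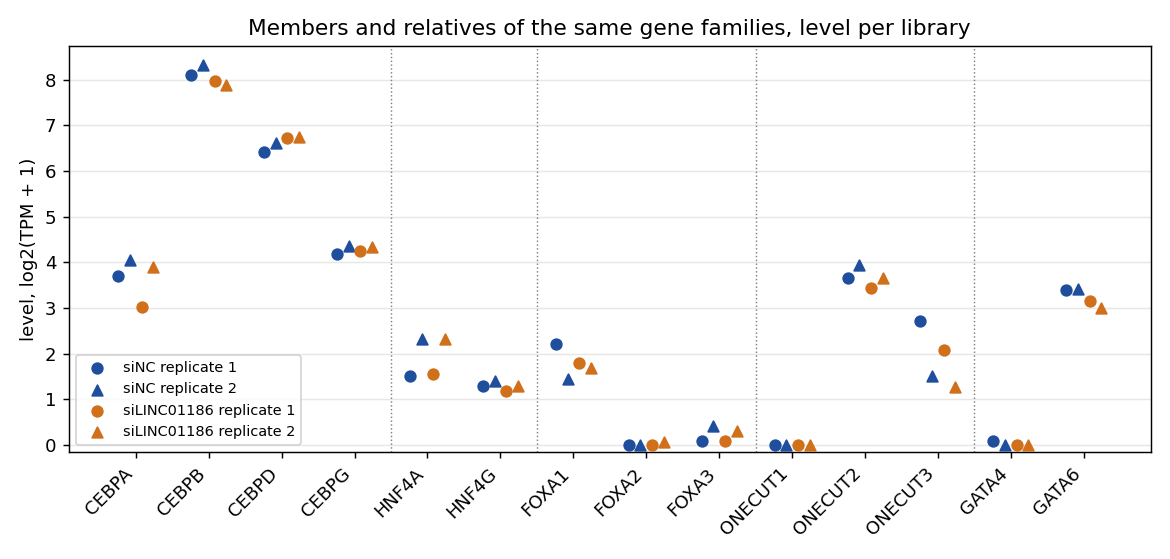
Level, as log2(TPM + 1) on the y axis, of members and relatives grouped by family between the dotted lines, with 1 point per library (blue siNC, orange siLINC01186, circles replicate 1, triangles replicate 2). CEBPB and CEBPD lie above CEBPA and ONECUT2 above ONECUT1 in every library.

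Transfection with siLINC01186 was compared with siNC to ask whether the liver factors differ after it. Between the libraries labelled siLINC01186 and siNC, none of the 6 members with at least 5 counts in all passed the edgeR quasi-likelihood test, nor did any reach an unadjusted p under 0.05. FOXA2 and ONECUT1, with 1 and 0 counts, were not tested. Over all 23942 genes tested, 0 were called at an adjusted p under 0.05 (0%), 289 had an unadjusted p under 0.05, and DESeq2 called 1 and limma 0. With the replicate number as a block, edgeR called 278 genes. The limits the study used, a log2 fold change beyond 1 with an unadjusted p under 0.05, took 181 genes (0.756%) and no member. The median log2 fold change of the 6 members was -0.02, beside 0.00 over all genes tested.

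The values of the members in this comparison were spread around 0 with wide intervals. NR5A2 had the largest log2 fold change by size, 0.39 (SE 0.47), with a 95% interval from -0.67 to 1.45. HNF4A was at 0.16 (SE 0.42, interval -0.78 to 1.11) and HNF4G at -0.01 (SE 0.35, interval -0.80 to 0.79). FOXA1 was at -0.04 (SE 0.42, interval -0.99 to 0.91), CEBPA at -0.25 (SE 0.30, interval -0.92 to 0.42) and FOXA3, on 11 counts in all, at -0.25 (SE 1.22, interval -3.02 to 2.52). The adjusted p of all 6 was 1.00, and the libraries of the 2 groups overlapped for all 6. The narrowest interval was that of CEBPA. These intervals come from the fit without a block. With the replicate number as a block, the SE was 0.20 for HNF4A and 0.16 for CEBPA. It was 0.27 for HNF4G, 0.25 for FOXA1 and 0.26 for NR5A2, while that of FOXA3 was larger, at 1.53. The block fit pooled the spread across genes, so these SEs hold almost nothing of each gene's own spread. No member was called with the block either. A value that misses the threshold does not show that the level stayed the same. MIR6087, a short RNA gene, took 1.16 and 1.91% of all TPM with siNC and 13.8 and 8.69% with siLINC01186, which lowers the TPM of other genes by construction, so folds are given from TMM-scaled counts.

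Within each replicate number the difference could be read only as a value. For CEBPA the CPM ratio of siLINC01186 to siNC was 0.714 in replicate 1 (95% counting interval 0.578 to 0.879) and 0.938 in replicate 2 (0.799 to 1.10). For NR5A2 it was 0.886 in replicate 1 (0.550 to 1.41) and 1.60 in replicate 2 (1.16 to 2.24). These were the only 2 of the member ratios whose counting interval left out 1, and each stood in 1 replicate number. FOXA1 was at 0.802 (0.576 to 1.11) and 1.35 (0.904 to 2.04), thus lower with siLINC01186 in replicate 1 and higher in replicate 2. HNF4A was at 1.23 (0.894 to 1.70) and 1.06 (0.855 to 1.32), and HNF4G at 1.06 (0.694 to 1.61) and 0.941 (0.638 to 1.39). On the log2 CPM scale the members lay between -0.48 and 0.66, and the central 80% of all genes between -0.65 and 0.65 in replicate 1 and between -0.61 and 0.66 in replicate 2. NR5A2 in replicate 2 was just above that range, at 0.665 against 0.657, and the others lay inside it. The range covers all genes with at least 5 counts in all, also those with few counts. Lying inside it therefore does not show that a difference is small for a gene with more counts. With 1 library per group and number, no difference between the 2 numbers was tested.

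**Figure D4:**
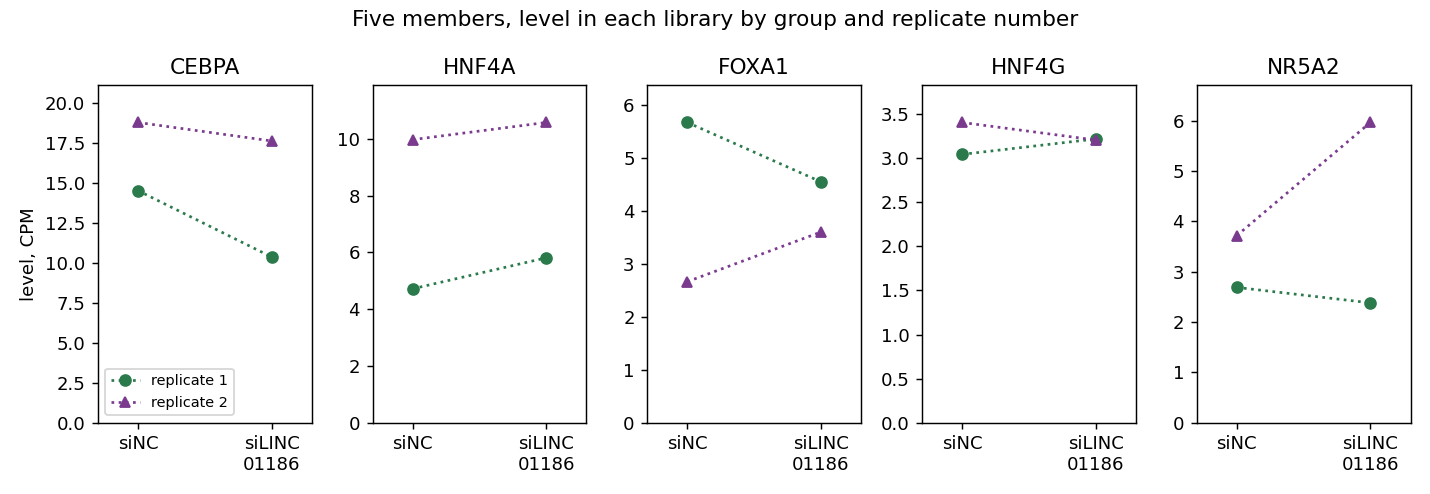
Level in CPM on the y axis (from 0, scale set per gene) of the 5 members with over 100 counts in all, by group on the x axis, with green circles for replicate 1 and purple triangles for replicate 2, and dotted lines joining libraries of the same number. CEBPA, HNF4A and NR5A2 lie higher in both replicate 2 libraries, FOXA1 lies higher in both replicate 1 libraries, and HNF4G overlaps at 3.04 to 3.41 CPM.

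The larger differences among members lay between the replicate numbers. With the group held in the fit, 4 of the 6 tested members passed the edgeR quasi-likelihood test between replicate 2 and replicate 1, 3 higher and 1 lower in replicate 2. Over all genes 17.5% were called, 7.96% higher and 9.55% lower in replicate 2, so calls between the numbers were common. In this fit the spread was pooled across genes, so its intervals and p-values hold almost nothing of each gene's own spread. HNF4A rose from a mean of 5.26 CPM in the replicate 1 libraries to 10.3 CPM in the replicate 2 libraries, a log2 fold change of 0.97 (SE 0.20, 95% interval 0.58 to 1.36, adjusted p = 3.33e-05). NR5A2 rose from 2.53 to 4.84 CPM, by 0.90 on the log2 scale (SE 0.27, interval 0.38 to 1.42, adjusted p = 0.00664). CEBPA rose from 12.4 to 18.2 CPM, by 0.56 on the log2 scale (SE 0.16, interval 0.24 to 0.88, adjusted p = 0.00594). FOXA1 fell from 5.11 to 3.13 CPM, a log2 fold change of -0.71 (SE 0.25, interval -1.20 to -0.22, adjusted p = 0.0312). The libraries of the 2 numbers did not overlap for these 4 members. For FOXA3 they did not overlap either, at 1 and 1 counts against 5 and 4, and its edgeR adjusted p was 0.499. How many of all genes do so was not counted, so this lack of overlap is a description only. HNF4G, at 3.13 and 3.31 CPM, had a log2 fold change of 0.08 (SE 0.28, interval -0.46 to 0.62).

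Within each group the direction was the same, but the interval of the ratio included 1 for NR5A2 with siNC and for FOXA1 with siLINC01186. For HNF4A the CPM ratio of replicate 2 to replicate 1 was 2.11 with siNC (95% counting interval 1.61 to 2.80) and 1.82 with siLINC01186 (1.40 to 2.39). For CEBPA it was 1.29 (1.09 to 1.54) and 1.70 (1.39 to 2.08), for NR5A2 1.38 (0.924 to 2.08) and 2.51 (1.69 to 3.81), and for FOXA1 0.470 (0.320 to 0.680) and 0.792 (0.552 to 1.14). These intervals hold counting error only, and the differences between the groups were not tested. Since the study describes different oligonucleotides against SALIS in its repeats, replicate number and oligonucleotide cannot be told apart within siLINC01186. The group term in the fit does not remove this. The calls rested on the test used: DESeq2 called none of the members, with HNF4A at an adjusted p of 0.0927, and 6.52% of the genes it gave an adjusted p, and limma on log2(TPM + 1) called no gene. Leaving out 1 library also meant leaving out the group term. With all 4 libraries and no group term, only HNF4A kept its call. Without 1 library the log2 fold change of HNF4A lay between 0.82 and 1.12.

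Marker levels also moved with the replicate number. The hepatocyte markers summed to 0.136 and 0.365 TPM in replicate 1 and 5.73 and 4.70 in replicate 2. Of the 7 tested, edgeR called 5, where it called 17.5% of all genes. These 5 reached the minimum of 5 counts only through the replicate 2 libraries. DESeq2 gave none of the 7 an adjusted p, so it could not call them. The 5 fibroblast and stellate markers summed to 18.9 and 14.9 against 32.2 and 30.5 TPM, and edgeR called 3 and DESeq2 2. Much of this sum was COL1A1, at 10.2 and 7.15 against 18.1 and 13.4 TPM. LUM overlapped, at 1.16 and 0.481 against 1.03 and 0.990 TPM. Of the 4 bile duct markers, KRT7 was lower in replicate 2 by a log2 fold change of -0.52 (SE 0.10, edgeR adjusted p = 8.40e-06). The other bile duct markers did not pass the test, at log2 fold changes of 0.24 for SOX9, 0.10 for KRT19 and 1.07 for CFTR. The part of these markers in the differences of the members was not tested, and in bulk RNA more cells of a kind and more RNA per cell cannot be told apart.

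**Figure D5:**
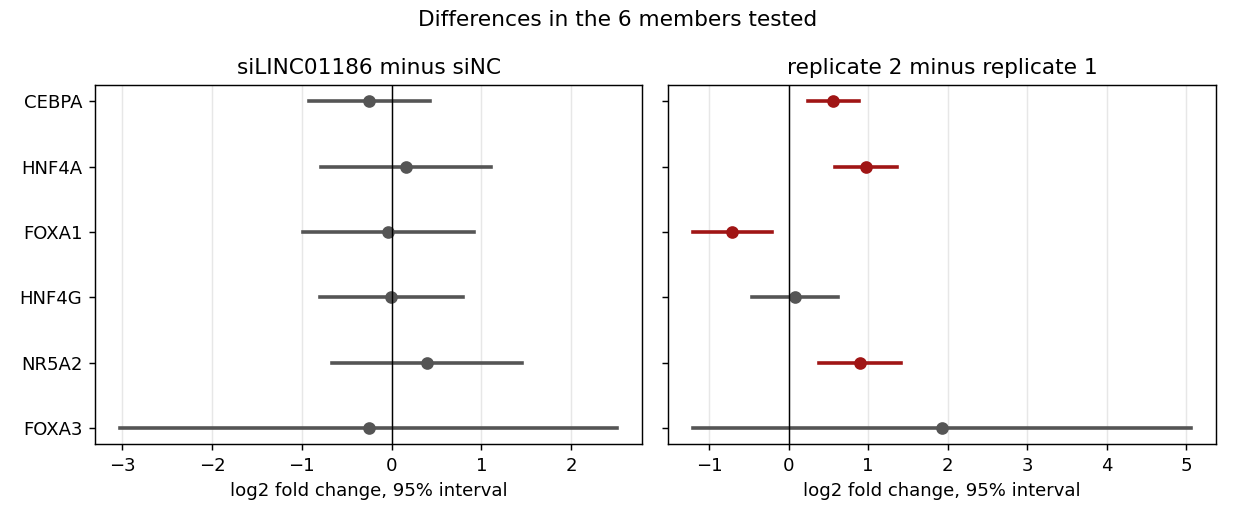
Log2 fold change (point) with its 95% interval (line) of the 6 tested members from the edgeR quasi-likelihood fits, left for siLINC01186 minus siNC and right for replicate 2 minus replicate 1, red where the adjusted p is under 0.05. On the left all 6 intervals cross 0, and on the right those of CEBPA, HNF4A, FOXA1 and NR5A2 do not.

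Genes known as targets of these factors were low for the most part, with 5 of 23 at a siNC mean of at least 1 TPM. Of the 23 genes, 9 had 3 counts or fewer in every library, and 3 had 0 in all 4, among them F9, which encodes a clotting factor, and CYP7A1, the rate-limiting enzyme of bile acid synthesis. CPS1, the first enzyme of the urea cycle, was the exception in level, at 282 and 347 TPM with siNC and 242 and 271 TPM with siLINC01186, together with SCARB1, the high-density lipoprotein receptor, at 209 and 221 TPM with siNC and 160 and 166 TPM with siLINC01186. Between the siRNA groups 0 of the 15 targets tested passed the edgeR test, DESeq2 called none, and IGFBP1 alone had an unadjusted p under 0.05. IGFBP1 was also the only target at the limits of the study, and the only one that edgeR called with the replicate number as a block. IGFBP1, an insulin-regulated binding protein of insulin-like growth factors, had 286 and 338 counts with siNC and 833 and 359 with siLINC01186, so that only the replicate 1 library of siLINC01186 stood apart (log2 fold change 1.04, SE 0.41, adjusted p = 1.00).

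Between the replicate numbers 7 of these 15 targets passed the edgeR test, where 17.5% of all genes did. DESeq2 called only PCK1 of them and gave ALB, APOA1, APOB, TF and SERPINA1 no adjusted p, and limma called none. PCK1, the gluconeogenic enzyme, had 20 and 27 counts in replicate 1 and 208 and 159 in replicate 2, and rose by 2.82 on the log2 scale (SE 0.25, edgeR adjusted p = 1.24e-26). ALB, at 0 and 0 against 15 and 14 counts, was at least 4.09-fold higher in replicate 2, and APOA1, at 0 and 0 against 21 and 20 counts, at least 5.78-fold, both against 3 counts in the replicate 1 library with the higher limit. APOB had 1 and 0 counts in replicate 1 and 27 and 10 in replicate 2, TF, transferrin, had 0 and 1 against 26 and 12, and SERPINA1, alpha-1 antitrypsin, had 0 and 1 against 17 and 7. IGFBP1 was called lower in replicate 2, by 0.66 on the log2 scale (SE 0.15, edgeR adjusted p = 1.62e-04), with overlapping libraries. The 2 groups went opposite ways for IGFBP1, from 58.3 to 20.2 CPM with siLINC01186 and from 17.1 to 20.9 CPM with siNC. Of the 7 targets called, 6 were higher in replicate 2, and for 5 of the 6 even the replicate 2 libraries held no more than 27 counts. These 5, ALB, APOA1, APOB, TF and SERPINA1, are also the hepatocyte markers called above, so the calls are not a separate result. They reached the minimum of 5 counts only through replicate 2, so the share over all genes is not a like comparison for them. Whether these targets follow any of the members was not tested.

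Of 25 other transcription factors of hepatocytes, 23 were tested and none was called between the siRNA groups by edgeR or DESeq2, where their median log2 fold change was 0.01. NR1H4, the bile acid receptor FXR and the only one with an unadjusted p under 0.05, was taken at the limits of the study on 0 and 0 counts with siNC and 1 and 8 with siLINC01186. Between the replicate numbers 7 of the 23 were called, 4 higher and 3 lower in replicate 2, beside 7.96% higher and 9.55% lower over all genes. CREB3L3, an endoplasmic reticulum-bound factor of hepatocytes and gut, had 22 and 17 counts in replicate 1 and 91 and 127 in replicate 2 and rose by 2.33 on the log2 scale (SE 0.29, edgeR adjusted p = 1.05e-13). PPARA, the fatty acid receptor, rose by 0.63, NFIL3 by 0.84 and DBP, a clock output factor, by 0.55. ATF5 fell by 1.26 on the log2 scale, ONECUT3 by 1.51 and TEF by 0.72. Of these 7, DESeq2 called CREB3L3, ATF5 and NFIL3. The relatives CEBPB, CEBPD and ONECUT2 were not among the genes called in either comparison.

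Of 10 coactivators and corepressors that these factors recruit, none was called between the siRNA groups by edgeR or DESeq2, with a median log2 fold change of -0.14 and no unadjusted p under 0.05. Between the replicate numbers edgeR called 3 of the 10, beside 17.5% of all genes, and DESeq2 none. PPARGC1A, the coactivator that pairs with HNF4A on gluconeogenic genes, had 228 and 156 counts in replicate 1 and 277 and 332 in replicate 2 and rose by 0.55 on the log2 scale (SE 0.16, edgeR adjusted p = 0.00744). CREBBP, a histone acetyltransferase, fell by 0.41 and MED1, a Mediator subunit, by 0.35, the libraries of MED1 overlapping.

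For the 5 members with a mean of at least 1 TPM in siNC, the genes with the most similar course over the 4 libraries were sought among 17158 genes by the root mean square difference of centred log2 CPM. JHDM1D-AS1 lay nearest to HNF4A at 0.018, with 4.35 and 9.49 TPM in siNC and 4.44 and 9.19 TPM in siLINC01186. ENSG00000257497.1 lay nearest to FOXA1 at 0.018, and MSRA, a methionine sulfoxide reductase, followed at 0.039. ENSG00000262769.1 lay nearest to CEBPA at 0.017, LIFR-AS1 nearest to NR5A2 at 0.035 and PRRC2B nearest to HNF4G at 0.0072. Likeness over 4 points, among this many genes, is a description of these libraries only.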

How the data were processed

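RNA-seq libraries of cells labelled HepG2 were used, 2 with siNC and 2 with siLINC01186, with groups and replicate numbers taken from the sample titles. Per the study's methods, poly(A) RNA was fragmented to about 200 bases and read as pairs of 150 bases. The library kit it names is known not to mark strand, which the study does not state. What the authors deposited were raw read counts for each gene, and the submitters' processing notes name HISAT2, TopHat2, Bowtie2, HISAT and hg19 without their roles. The strand setting of the counting is not given in the sources used here. The authors also deposited TPM, which equal counts divided by the tables' gene length and scaled to 1000000 (largest difference 2.91e-05). No read was realigned.

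A gene entered the fit when its counts over the 4 libraries came to 5 or more. TMM scaling was used, with edgeR 4.0.16 (its quasi-likelihood F test, Benjamini-Hochberg over 23942 genes, called at an adjusted p under 0.05) in R 4.3.3, for the group without a block and for the replicate number with the group as a term. CPM uses TMM-scaled library sizes, and log2 CPM a prior count of 2. Intervals are at 95%, and those of ratios within a number are exact conditional intervals of counts. The alternatives were DESeq2 1.42.0 size factors, its Wald test, the expression filter of edgeR, a minimum of 1 count, limma 3.58.1 on log2(TPM + 1), the replicate number as a block, no group term, a prior count of 0.5, CPM on total counts, and leaving out each library. Fits of the replicate number without 1 library held no group term. The code was tested on simulated counts. Promoter windows were read from a RefSeq table with Python 3.11.15.

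The members and lists were chosen with earlier results of these data known. Named are the 8 members, in each list the genes past a threshold and up to 4 more by siNC level or fold change, and for each member the nearest genes. TTR, FGB and other genes at or near 0 counts, the antisense neighbours of CEBPA, and family relatives were named after their values were seen. A few list genes are not reported here. No amino acid sequences were used. Replicates of the same group differed by more than sampling noise, at a chi-square per gene of 16.1 for siNC and 18.5 for siLINC01186.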

Additional observations from a re-analysis of the deposited data

How the results depend on the processing

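The test and the libraries used set how many genes were called. Between siLINC01186 and siNC, where no gene was called, DESeq2's Wald test called 1, a minimum of 1 count 5, and the replicate block 278. The 181 genes at the limits of the study became 27 with DESeq2's Wald test, 46 with edgeR's expression filter and 248 to 375 without 1 library. No member was called in that comparison under any of the 10 alternatives. Its signs changed without 1 library, the log2 fold change ranging from -0.34 to 0.81 for HNF4A, -0.084 to 0.082 for HNF4G, -0.48 to 0.61 for FOXA1, -1.30 to 1.26 for FOXA3, -0.69 to 0.083 for CEBPA and -0.43 to 0.90 for NR5A2. limma on log2(TPM + 1) moved the median of all genes to -0.12 on the log2 scale, against which HNF4A was at 0.01, CEBPA at -0.42 and HNF4G at -0.10.

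Between the replicate numbers, the 4191 genes called became 925 with DESeq2's Wald test, 2754 with edgeR's expression filter, 0 with limma on log2(TPM + 1), 2158 without a term for the group and 1294 to 3332 without 1 library. The 4 members called became 0 with DESeq2, 2 with the filter, 0 with limma, 1 without the group term and 1 to 3 without 1 library. HNF4A was called in 7 of 10 alternatives, CEBPA in 6, FOXA1 in 3 and NR5A2 in 3, and none of the 4 changed sign. Without 1 library the log2 fold change ranged from 0.82 to 1.12 for HNF4A, -0.95 to -0.48 for FOXA1, 0.33 to 0.81 for CEBPA and 0.54 to 1.25 for NR5A2. CEBPA was at its lowest, and lost its call, without siLINC01186 replicate 1 (edgeR adjusted p = 0.509), and NR5A2 without siLINC01186 replicate 2 (edgeR adjusted p = 0.365). Of these settings NR5A2 kept its call only without siNC replicate 2 and FOXA1 only without siLINC01186 replicate 2. The fits without 1 library also held no group term. With all 4 libraries and no group term, only HNF4A kept its call, so a lost call cannot be laid to the library left out. The causes were not tested. The model with the group left 1 residual degree of freedom per gene, and the spread was taken almost wholly from all genes together. With edgeR's expression filter HNF4A had a log2 fold change of 0.98 and an edgeR adjusted p of 0.0120.

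Whether the replicate numbers pair the libraries is not given by the labels, which share only a number. Libraries with the same number deviated from their groups together, with a correlation of 0.563 over 16848 genes, and the first principal component, with 62.4% of the variance, separated number 1 from number 2. With the replicate block, 278 genes were called between the siRNA groups and no member, and FOXA1 changed sign to 0.024. Of the listed genes the block called only IGFBP1, at a log2 fold change of 0.88 (edgeR adjusted p = 3.67e-06). In that fit the spread was pooled across genes, so the p-value holds almost nothing of the spread of IGFBP1 itself. IGFBP1 was at 17.1 CPM with siNC and 58.3 with siLINC01186 in replicate 1. In replicate 2 it was at 20.9 CPM with siNC and 20.2 with siLINC01186.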

Other observations

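Noncoding genes beside the members had few counts. CEBPA-AS1, which lies beside CEBPA on the plus strand without overlapping it, had 6 and 12 counts with siNC and 4 and 14 with siLINC01186, and it was therefore lower in both replicate 1 libraries, as CEBPA was. HNF4A-AS1, on the strand opposite to HNF4A, had 0 counts in all 4 libraries. IRF2BP1 and SYMPK, protein-coding genes within 10 kb of FOXA3, had 1356 to 1769 and 2534 to 3193 counts, beside 1 to 5 counts of FOXA3 itself.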
